A study of Mus musculus with 66 samples.

Results

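Hippocampus was compared with cortex in wild-type DBA/1J mice by RNASeq of polyadenylated RNA. The comparison used 6 of the 66 libraries of the series, 3 of hippocampus and 3 of cortex, chosen by the labelled tissue and genotype (DBA-WT). The series itself compares mice with spontaneous mutations of the nuclear receptor gene *Rorb* with strain-matched controls, and DBA/1J is the strain on which the h5 allele arose. The same 3 mice gave both tissues, as the animal identifiers of the deposited files show, so each hippocampus was paired with the cortex of its own mouse. All 3 mice were labelled as 7 weeks old, animals 1 and 2 as female and animal 3 as male, and no treatment was named. The study's methods describe dissection of the regions from one side of a sagittally cut brain for the mutant of this strain. For the DBA/1J mice the same step is assumed here. Every library comes from whole pieces of tissue and holds neurons, glia and vessels together, and fewer cells of a type cannot be told apart from less RNA per cell.

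The hippocampus and the neocortex arise next to each other in the dorsal telencephalon and share most of their classes of neurons and glia. In the hippocampus, granule cells of the dentate gyrus project to CA3 pyramidal cells, which project to CA1, and CA2 lies between these fields. Granule cells are added throughout life from progenitors in the dentate gyrus. The neocortex is built of layers, in which intratelencephalic neurons of the upper layers, thalamus-recipient neurons of layer 4 and the projection neurons of layers 5 and 6 use different transcription factors. *Prox1* encodes a homeodomain factor that specifies granule cells, and *Rorb* encodes RORβ, a factor of layer 4 neurons.

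Total expected counts ranged from 33801889 to 43558252 per library, and between 21346 and 21714 genes were detected in each. None of the 15 pairs of the 6 libraries held identical values. The cortex of animal 1 stood apart, with 8.09% of its counts from mitochondrial genes against 5.27% to 6.32% in the other 5 libraries. The first principal component of the 500 most variable genes carried 66.9% of the variance and separated the tissues, with the cortex libraries between -29.5 and -24.8 and the hippocampus libraries between 21 and 31.5. Levels are given as CPM, counts scaled to a fixed library total after TMM normalization, in the order of animals 1, 2 and 3. Differences are log2 fold changes of hippocampus minus cortex with an approximate standard error (SE). The SE was derived from the test, as the absolute log2 fold change divided by the square root of the F statistic. A gene was called at a Benjamini-Hochberg adjusted p under 0.05 in edgeR's quasi-likelihood test with the animal as a block.

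Of 17166 genes tested, 3815 were called, or 22.2% of them. Of these, 1797 were higher in hippocampus (10.5% of the genes tested) and 2018 were higher in cortex (11.8%). The larger side turned with the scaling: hippocampus held 47.1% of the calls here, 56% with scaling by library size alone (2207 against 1734 genes) and 56.3% with TPM in limma (1768 against 1370). Most differences were small: the median absolute log2 fold change of the called genes was 0.62, and 598 genes (3.48%) were more than 2-fold higher in hippocampus and 520 (3.03%) more than 2-fold higher in cortex. Differences of more than 8-fold were found for 69 genes in hippocampus and 47 in cortex. The direction was the same in all 3 animals for 3813 of the called genes. The exceptions, *Arhgap30* and *2210418O10Rik*, were named after their values were seen. Called genes were more frequent among those with a higher level, from 8.85% of genes with a mean under 1 CPM to 36.3% of genes above 100 CPM. Among lncRNA genes, 46 were higher in hippocampus and 107 higher in cortex, or 15.1% of 1010 tested, and among protein-coding genes 23.8% of 14757 were called. Without animal 1 the number higher in hippocampus was 1142, and 396 of these were past 2-fold.

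**Figure D1:**
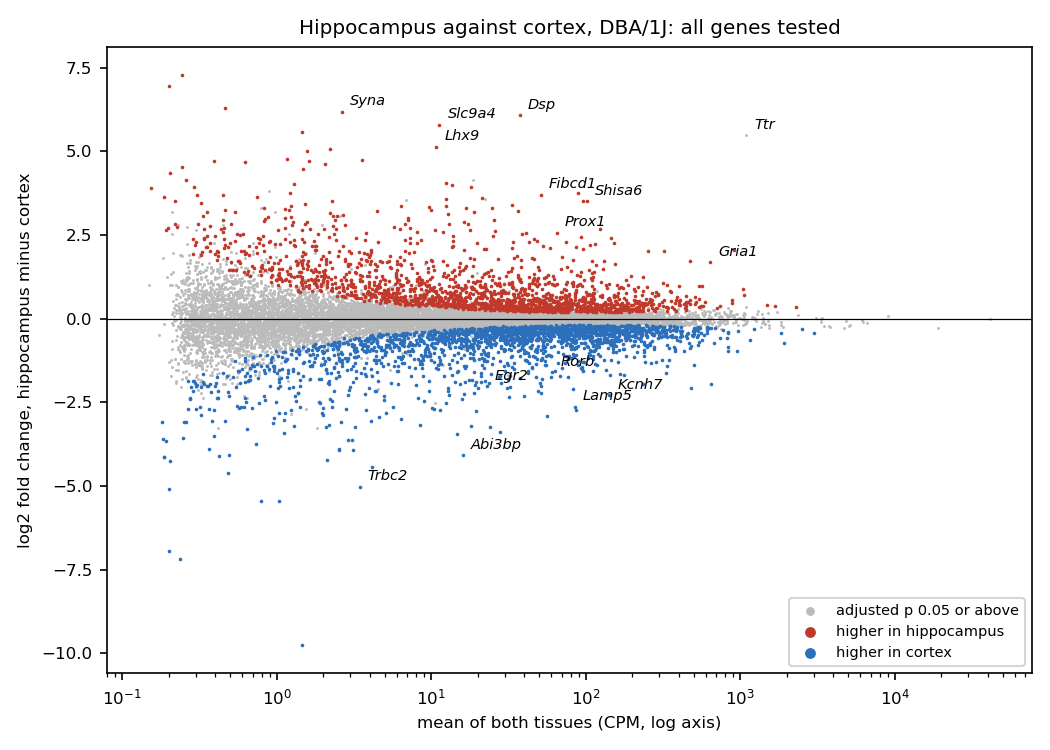
Each point is 1 of the 17166 genes tested, with its mean CPM over both tissues (horizontal, log axis) and its log2 fold change of hippocampus minus cortex (vertical). Red and blue points are the 1797 and 2018 genes called higher in hippocampus and in cortex, grey points were not called, and the fold changes of genes near 0 CPM in one tissue depend on the prior count of the fit.

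Both marker genes followed the labels. *Prox1* (chr1:190118035-190170827, GRCm38) measured 19.5, 18.2 and 18.4 CPM in cortex and 118, 103 and 112 CPM in hippocampus. It was 5.93-fold higher in hippocampus (log2 fold change 2.57, SE 0.06, adjusted p = 1.7e-05) and had the smallest p of the genes with a symbol that were higher there. *Rorb* (chr19:18930609-19111196, GRCm38) measured 81.3, 108 and 83.8 CPM in cortex and 30.4, 32.3 and 26.8 CPM in hippocampus. The tissues did not overlap for either gene, and *Rorb* was 3.03-fold higher in cortex (log2 fold change -1.60, SE 0.08, adjusted p = 6.1e-05). Both genes were present in the other tissue as well, at 4.75 TPM (a level per length) for *Prox1* in cortex and 6.76 TPM for *Rorb* in hippocampus.

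Granule cell genes had the highest median of the lists for hippocampal neurons. Of 14 genes of the dentate gyrus list, 10 were higher in hippocampus and 1 was higher in cortex (10.5% and 11.8% of all genes), with a median log2 fold change of 1.40, against a median of 0 over all genes tested. *Dsp*, which encodes the desmosomal protein desmoplakin, measured 0.637, 1.76 and 0.929 CPM in cortex and 84.4, 61.5 and 74.8 CPM in hippocampus, a log2 fold change of 6.08 (SE 0.29, adjusted p = 6.1e-05). *Lct*, the gene of lactase, measured 3.18, 3.32 and 3.16 CPM in cortex and 43.7, 35.8 and 38 CPM in hippocampus. Both genes were low in every cortex and far higher in every hippocampus. *Tdo2*, which encodes a tryptophan-degrading dioxygenase, *C1ql2*, a secreted organizer of mossy fiber synapses, and *Sema5a*, a guidance molecule, were higher in hippocampus by 3.75 (SE 0.41), 2.96 (SE 0.23) and 1.49 (SE 0.10) on the log2 scale. The exception was *Calb1*, the gene of the calcium buffer calbindin, at 124, 129 and 132 CPM in cortex and 106, 104 and 103 CPM in hippocampus. *Calb1* is a granule cell protein that cortical neurons also make, and its difference of -0.30 was lost without animal 2 (adjusted p = 0.083) and with TPM (0.22). *Plk5*, *Pdia5* and *Npnt* were not called, with log2 fold changes of -0.49, -0.37 and -0.10.

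Genes of the pyramidal fields had medians of 1.05 in CA3, 0.86 in CA1 and 0.81 in CA2. These have no stable order, since CA3 (0.81) lay below CA1 (0.86) without animal 1 and CA2 above CA1 without animal 2 (0.99 against 0.87) or animal 3 (0.97 against 0.93). Of 13 CA3 genes, 10 were higher in hippocampus and 1 in cortex (10.5% and 11.8% of all genes). *Il16*, a cytokine precursor gene with a neuronal form, measured 3.23, 1.70 and 1.80 CPM in cortex and 36.8, 30.7 and 34.2 CPM in hippocampus (log2 fold change 3.94, SE 0.16, adjusted p = 3.4e-05). *Homer3*, a postsynaptic scaffold of metabotropic glutamate receptors, had a log2 fold change of 2.48 (SE 0.10) and *Grik4*, a kainate receptor subunit of mossy fiber synapses, one of 1.20 (SE 0.09). *Coch*, an extracellular matrix gene, went against the list at 31.9, 38.4 and 34.3 CPM in cortex and 8.81, 10.4 and 9.80 CPM in hippocampus (log2 fold change -1.85, SE 0.08). *Nectin3* and *Socs2* were not called (0.06 and 0.14), and the call of *Bok* (0.41) was lost without animal 1 (adjusted p = 0.066) and without animal 3 (adjusted p = 0.061).

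Of 10 CA1 genes, 8 were higher in hippocampus and 1 in cortex (10.5% and 11.8% of all genes). *Fibcd1*, which encodes a receptor for acetylated sugars, measured 6.32, 6.36 and 9.23 CPM in cortex and 97.5, 92.1 and 95 CPM in hippocampus (log2 fold change 3.71, SE 0.12, adjusted p = 2.1e-05). *Spink8*, a predicted protease inhibitor gene, stood at 0.182, 0.247 and 0.345 CPM in cortex and 7.46, 6.71 and 6.31 CPM in hippocampus, and *Gpr161*, an orphan receptor of the primary cilium, had a log2 fold change of 3.21 (SE 0.11). The remaining called members differed by less than 2-fold or close to it, as *Htr1a*, the serotonin 1A receptor gene (0.99, SE 0.09), and *Man1a* (1.00, SE 0.09). *Zdhhc2*, a palmitoyltransferase gene, was higher in cortex (-0.48, SE 0.06), *Mpped1* was not called (-0.14), and the call of *Wfs1* (0.70) was lost without animal 1 (adjusted p = 0.1), without animal 2 (0.071), without the block (0.053), with DESeq2 (0.054) and in one fit of 18 libraries (0.053). In the CA2 list 5 of 10 genes were higher in hippocampus (10.5% of all genes), among them *Rgs14* (0.99, SE 0.12), a signaling regulator that limits plasticity in CA2, and *Amigo2* (1.78, SE 0.10), an adhesion molecule. The sixth called CA2 gene, *Pcp4*, a regulator of calmodulin, was higher in cortex (-1.02, SE 0.09), where deep-layer neurons also express it.

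**Figure D2:**
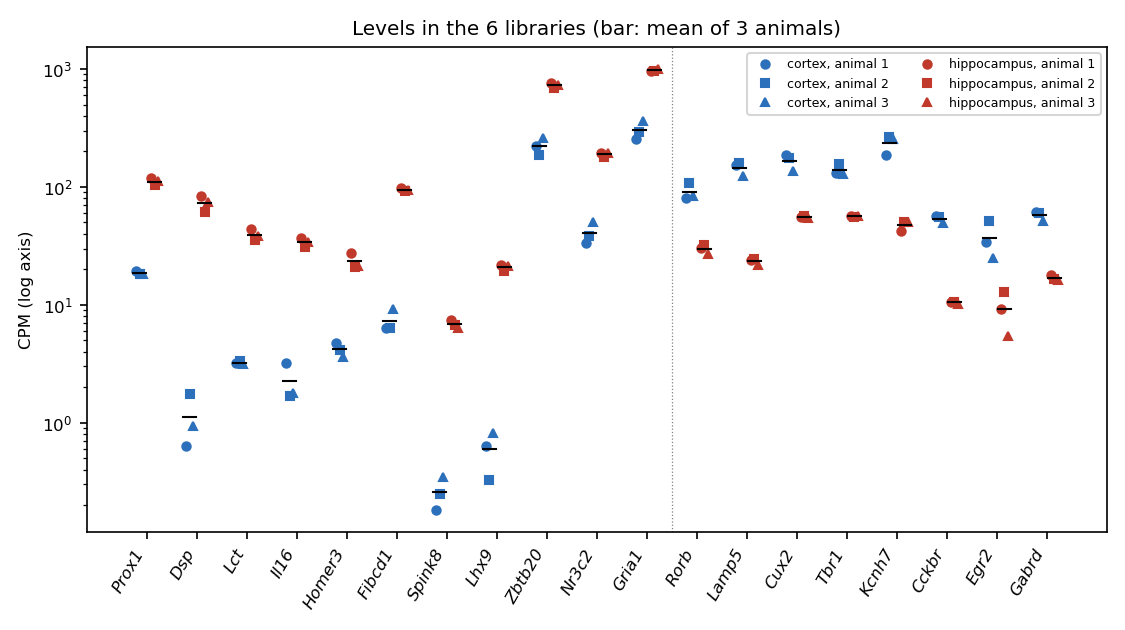
CPM (vertical, log axis) of 19 genes in the 6 libraries; circles, squares and triangles are animals 1, 2 and 3, blue is cortex, red is hippocampus, and bars are means. Left of the dotted line every hippocampus value lies above every cortex value, as *Prox1* at 103 to 118 against 18.2 to 19.5 CPM, and right of it every cortex value lies above every hippocampus value, as *Lamp5* at 124 to 159 against 21.9 to 24.6 CPM.

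Transcription factors that pattern the hippocampus were called in both directions, 5 higher in hippocampus and 2 higher in cortex of 12 tested (10.5% and 11.8% of all genes). *Lhx9*, a LIM homeobox gene, measured 0.637, 0.329 and 0.823 CPM in cortex and 21.9, 19.4 and 21.4 CPM in hippocampus (log2 fold change 5.14, SE 0.21, adjusted p = 3.4e-05). *Zbtb20*, a repressor needed for hippocampal identity, measured 221, 187 and 259 CPM in cortex and 763, 686 and 730 CPM in hippocampus (1.72, SE 0.09). *Lhx9* was thus near absent from cortex, while *Zbtb20* was present in both tissues at a different level. *Nr2f2* (1.39, SE 0.16), an orphan receptor gene of caudal telencephalon, was also higher in hippocampus. *Meis2*, a homeobox gene that is also strong in striatum, was higher in cortex (-1.11, SE 0.27), and this call was lost without animal 1 (adjusted p = 0.063), with DESeq2 (0.066) and with TPM (0.075). The other call in this direction, *Nr2f1* (-0.29), was lost without animal 1 (adjusted p = 0.14), without animal 2 (0.24), without the block (0.067), with library size alone (0.077), with TPM (0.48) and in one fit of 18 libraries (0.1). The list thus had 0 genes higher in cortex without animal 1 and with TPM. *Emx2*, *Lef1* and *Lhx2*, which act early in hippocampal development, were not called, with log2 fold changes of 0.42, 0.20 and 0.23.

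The neurogenesis list held genes of progenitors, cycling cells and new neurons, and 5 of 14 were higher in hippocampus (10.5% of all genes), or 3 without animal 1. *Neurod1*, a basic helix-loop-helix factor of new granule cells, measured 9.44, 9.96 and 10.1 CPM in cortex and 20.9, 19.9 and 18.9 CPM in hippocampus (1.01, SE 0.09). *Hopx*, a gene of quiescent progenitors and astrocytes (1.12, SE 0.09), and *Igfbpl1*, a gene of immature neurons (1.78, SE 0.32), were also higher there. *Dcx*, the microtubule protein of migrating neurons, went the other way at 79.1, 68.4 and 86.5 CPM in cortex and 36.6, 42.3 and 32.7 CPM in hippocampus (-1.07, SE 0.13, adjusted p = 0.0017). The cell cycle genes *Mki67*, *Top2a* and *Cdk1* were at or below 3.96 CPM in every library and were not called, with log2 fold changes of -0.21, -0.08 and -0.39. The call of *Calb2* (1.35), the calretinin gene, was lost without animal 1 (adjusted p = 0.056).

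Cortical layer genes differed by layer. All of the called genes of layers 2 and 3 were higher in cortex, 8 of 9 tested (11.8% of all genes), with a median of -1.63. *Lamp5*, a lysosome-associated membrane protein of upper-layer and neurogliaform cells, measured 154, 159 and 124 CPM in cortex and 23.9, 24.6 and 21.9 CPM in hippocampus. It had the smallest p of the genes with a symbol that were higher in cortex (-2.63, SE 0.07, adjusted p = 1.7e-05). *Cux2* (-1.56, SE 0.09), *Cux1* (-1.28, SE 0.06) and *Pou3f2* (-1.71, SE 0.09), factors of upper-layer identity, followed. *Pou3f3*, the paralog of *Pou3f2*, was not called (-0.19).

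In the layer 4 list 3 of 7 genes were higher in cortex (11.8% of all genes), *Rorb*, *Rspo1* and *Kcnh5*. *Rspo1*, a secreted agonist of Wnt signaling, measured 8.03, 8.36 and 5.28 CPM in cortex and 1.18, 1.31 and 0.307 CPM in hippocampus (-3.06, SE 0.27, adjusted p = 0.00058). *Kcnh5*, a potassium channel gene, measured 23.1, 49.2 and 58 CPM in cortex and 4.02, 5.37 and 3.76 CPM in hippocampus. The cortex of animal 1 was the lowest of the 3 for *Kcnh5* but stayed above every hippocampus library. *Lmo3*, a LIM-only factor, was higher in hippocampus (0.71), a call lost without animal 1 (adjusted p = 0.12), without animal 2 (0.099), without the block (0.085), with DESeq2 (0.1) and with TPM (0.057), and *Scnn1a*, *Whrn* and *Endou* were not called.

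Of 11 genes named for layer 5, 6 were higher in hippocampus and 2 in cortex (10.5% and 11.8% of all genes). *Tshz2* (0.62, SE 0.06), *Npr3* (1.22, SE 0.13), the natriuretic peptide clearance receptor gene, and *Slco2a1* (1.67, SE 0.22), a prostaglandin transporter gene, were among the former. *Deptor*, an inhibitor of mTOR signaling, was higher in cortex (-0.90, SE 0.07), and it was the 1 such call left when each animal was left out in turn. In the layer 6 and subplate list 8 of 12 genes were higher in cortex (11.8% of all genes), among them *Tbr1* (-1.29, SE 0.08), a T-box factor of corticothalamic neurons, and *Cplx3* (-1.24, SE 0.16), a complexin of subplate cells. *Crym*, a thyroid hormone binding protein, was the clearest exception, at 27.6, 30.3 and 34.6 CPM in cortex and 111, 105 and 112 CPM in hippocampus (1.83, SE 0.08). *Foxp2* and *Oprk1*, which layer 6 shares with striatum, stood at 11, 21.3 and 33.5 CPM and at 4.12, 7.90 and 12.9 CPM in the cortex of animals 1, 2 and 3, the order of the striatal genes described below.

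**Figure D3:**
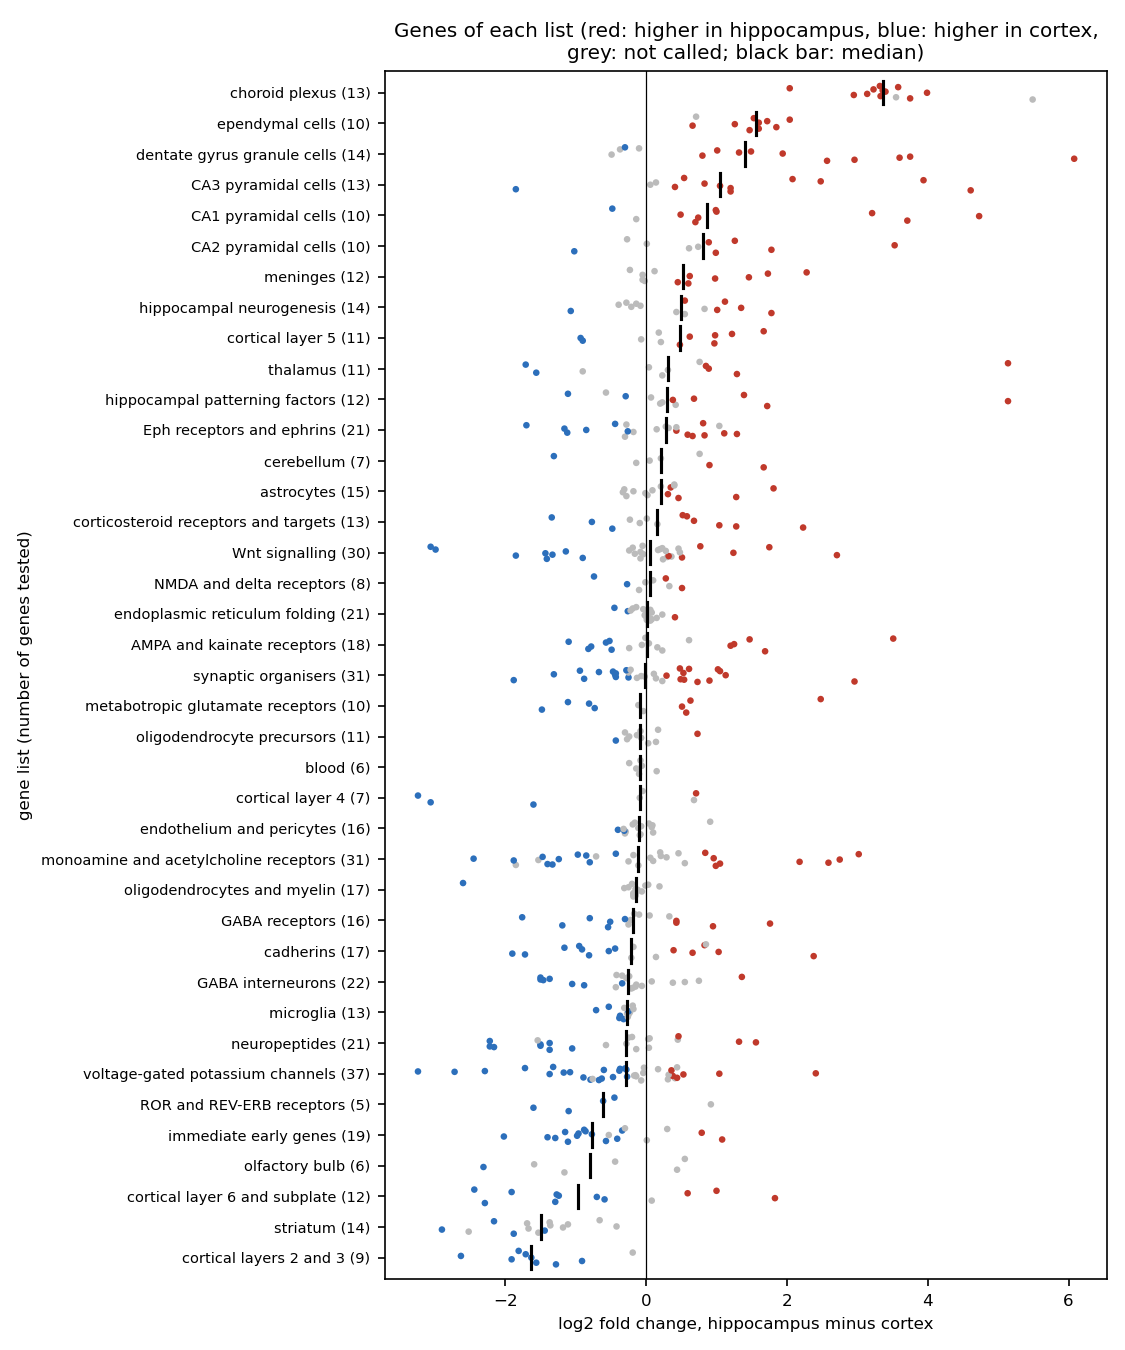
Log2 fold changes of hippocampus minus cortex (horizontal) for the genes tested of 39 lists, ordered by their medians (black bars). The choroid plexus list stands highest with a median of 3.36, followed by ependymal cells (1.56) and dentate gyrus granule cells (1.40), and the lists of cortical layers 2 and 3 (-1.63) and striatum (-1.49) stand lowest, in the other order without animal 1 (-1.67 and -2.3), without animal 2 (-1.62 and -1.63) or without the block (-1.65 and -1.98). Without animal 3 the striatum list (-0.51) lay above those of layer 6 and subplate (-0.95) and of immediate early genes (-0.81).

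The 15 largest differences toward hippocampus were taken among called genes with a symbol, 1 direction in all 3 animals and a mean of at least 5 CPM in the tissue where they were higher. They held granule cell, CA1 and CA3 genes named above and 4 genes of the choroid plexus list (*Slc4a5*, *Kl*, *Sostdc1* and *Prlr*). *Syna*, which encodes the fusogenic envelope protein syncytin A, measured 0.0227, 0.0823 and 0.106 CPM in cortex and 6.40, 4.27 and 4.98 CPM in hippocampus (6.19, SE 0.38). *Slc9a4*, a sodium-proton exchanger gene, measured 0.159, 0.192 and 0.902 CPM in cortex and 21.7, 22.8 and 22 CPM in hippocampus (5.80, SE 0.41). Both genes were at or below 0.902 CPM in every cortex and at or above 4.27 CPM in every hippocampus. *Cabp7*, a neuronal calcium sensor gene, measured 19.4, 13.1 and 14 CPM in cortex and 193, 156 and 178 CPM in hippocampus (3.52, SE 0.09). *Slit1* (2.40, SE 0.06), a repulsive axon guidance ligand, and *Nrp1* (2.09, SE 0.06), a receptor for semaphorins and VEGF, were among the 5 genes with a symbol that had the smallest p in this direction. *Cldn2*, a claudin of leaky epithelia, measured 0.318, 4.53 and 0.265 CPM in cortex and 27.8, 7.44 and 34.9 CPM in hippocampus, the pattern of the choroid plexus genes, and its call was lost without animal 1 (adjusted p = 0.18) and without animal 3 (0.052). The calls of *Slc4a5*, *Kl*, *Sostdc1* and *Prlr* were lost without animal 1 (adjusted p = 0.16, 0.13, 0.13 and 0.1).

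The 15 largest differences toward cortex by the same rule were led by *Trbc2*, *Tnnc1* and *Abi3bp*. *Abi3bp*, a matrix protein gene, measured 19.9, 29.7 and 40.8 CPM in cortex and 1.29, 1.94 and 2.03 CPM in hippocampus (-4.08, SE 0.12, adjusted p = 1.7e-05). *Trbc2*, the constant region of the T cell receptor beta chain, measured 7.53, 8.36 and 4.11 CPM in cortex and 0.229, 0.262 and 0.118 CPM in hippocampus (-5.02, SE 0.20). *Tnnc1*, the slow muscle troponin C gene (-4.43, SE 0.29), *Cacna1s*, the skeletal muscle calcium channel gene (-3.63, SE 0.24), and *Igfn1*, a muscle protein gene (-3.38, SE 0.19), were among these 15. *Ptprv* (-3.92), *Chrnb3*, a nicotinic receptor subunit gene (-3.62), *Rasgef1c* (-3.44), *Tgm3*, a transglutaminase gene (-3.25), *Smim43* (-3.22), *Gm3883* (-3.19), *Dkkl1* (-2.99) and *Gm28800* (-2.94) completed the 15 largest with *Kcnh5* and *Rspo1*. *Rgs6* (-2.23, SE 0.06), a regulator of G protein signaling, *Kcnh7* (-2.29, SE 0.07) and *Cckbr*, the cholecystokinin B receptor gene, had the smallest p of genes with a symbol, with *Lamp5* and *Abi3bp*. *Cckbr* measured 56.7, 55.1 and 49.2 CPM in cortex and 10.6, 10.6 and 10.2 CPM in hippocampus.

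Of 22 interneuron genes, 1 was higher in hippocampus and 7 were higher in cortex, against 10.5% and 11.8% of all genes. The median was -0.26, or -0.46 without animal 2 and -0.12 without animal 3. The general GABA neuron genes *Gad1*, *Gad2* and *Slc32a1* were not called, with log2 fold changes of -0.21, -0.19 and -0.43. *Npy* measured 56.6, 45.5 and 34.2 CPM in cortex and 19.7, 16.1 and 16.1 CPM in hippocampus (-1.37, SE 0.10), and *Vip* (-1.05, SE 0.15) and *Pvalb* (-0.88, SE 0.14) were also higher in cortex, whereas *Sst* was not called (-0.14). *Nos1*, neuronal nitric oxide synthase, which CA1 pyramidal cells also express, was the gene higher in hippocampus (1.36, SE 0.13). Of 15 astrocyte genes 5 were higher in hippocampus (10.5% of all genes), or 2 without animal 2: *Gfap*, the intermediate filament of fibrous astrocytes, at 117, 105 and 122 CPM in cortex and 290, 264 and 280 CPM in hippocampus (1.28, SE 0.06), *Agt*, angiotensinogen (1.81, SE 0.27), and by under 1.5-fold *Aqp4*, *Sox9* and *Gja1*. *Aldh1l1*, a folate enzyme gene of astrocytes, was higher in cortex (-0.33), a call lost without animal 1 (adjusted p = 0.17), without animal 2 (0.13), without the block (0.17) and with library size alone (0.084). The summed level of the list was 9289, 7469 and 6733 CPM in cortex and 7332, 6859 and 6653 CPM in hippocampus, so that the tissues of animal 3 were close to each other. The cortex of animal 1, with its mitochondrial share of 8.09%, was the highest library for this sum and for those of the oligodendrocyte (6687 CPM), microglial (505), endothelial (1009) and blood (242) lists. Without animal 2 the calls of *Aqp4*, *Sox9* and *Gja1* were lost (adjusted p = 0.057, 0.06 and 0.23), and that of *Gja1* also without animal 3 (0.091) or the block (0.074).

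Of 17 oligodendrocyte genes 1 was called (5.88%, against 22.2% of all genes), or 2 without animal 1 and 2 without animal 3. It was *Klk6*, a protease gene at or below 1.11 CPM in every library. *Mbp* measured 2418, 1919 and 1545 CPM in cortex and 1678, 1834 and 1601 CPM in hippocampus, and these ranges overlapped. Of 13 microglia genes 6 were higher in cortex (46.2%, against 11.8% of all genes) and all 13 log2 fold changes lay between -0.71 and -0.18. *Csf1r*, the receptor that microglia need to survive, measured 95.4, 87.4 and 84 CPM in cortex and 66.8, 68.1 and 71.7 CPM in hippocampus (-0.37, SE 0.07). Its call was lost without animal 2 (adjusted p = 0.052). The microglial calls were 1 without animal 1, 0 without animal 2 and 8 without animal 3. Of 16 endothelial and pericyte genes 2 were higher in cortex (12.5%, against 11.8% of all genes), and this number was 0, 1 and 6 without animals 1, 2 and 3 and 0 without the animal block, with library size alone or with TPM. Of 6 blood genes 0 were called (0%, against 22.2% of all genes).

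Markers of tissues that border the dissected regions differed between libraries. Of 13 choroid plexus genes 11 were higher in hippocampus (10.5% of all genes), with a median of 3.36, or 2.68, 4.95 and 2.6 without animals 1, 2 and 3. The summed level of the list was 346, 1091 and 247 CPM in cortex and 4433, 1608 and 5727 CPM in hippocampus. *Ttr*, transthyretin, the most abundant product of the choroid plexus, measured 36, 434 and 7.11 CPM in cortex and 2369, 720 and 2999 CPM in hippocampus and was not called (5.49, SE 1.74, adjusted p = 0.067). Animal 2 thus had the highest choroid level of the cortices and the lowest of the hippocampi. Without animal 1 the list had 1 call, and without animal 2 all 13 genes were called. The ependymal list was more even between animals, with 9 of 10 genes higher in hippocampus (10.5% of all genes) and summed levels of 15.1, 15.7 and 13.9 CPM against 41.1, 33.8 and 40.9 CPM. *Foxj1*, the master factor of motile cilia, had a log2 fold change of 1.47 (SE 0.23). Of 12 meningeal genes 7 were higher in hippocampus (10.5% of all genes), led by *Dcn*, decorin (2.28, SE 0.09), with sums of 150, 176 and 168 CPM in cortex and 386, 312 and 474 CPM in hippocampus.

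Striatal genes varied among the cortices. Their median log2 fold change was -1.49, or -2.3, -1.63 and -0.51 without animals 1, 2 and 3. Their summed level was 189, 636 and 1221 CPM in the cortex of animals 1, 2 and 3 and 180, 263 and 189 CPM in hippocampus, so that the tissues of animal 1 were close to each other. *Drd1*, the dopamine D1 receptor gene, measured 10.2, 26.5 and 58.4 CPM in cortex and 5.02, 10.4 and 6.38 CPM in hippocampus. Of 14 striatal genes 4 were called higher in cortex (11.8% of all genes), among them *Drd1*, *Penk* and *Ppp1r1b*, and this number was 11, 3 and 7 without animals 1, 2 and 3, with *Ppp1r1b* lost without animal 2 (adjusted p = 0.095) and with DESeq2 (0.094). *Meis2*, *Foxp2*, *Syt6*, *Oprk1* and *Tac1* were highest in the same cortex library, that of animal 3. Of 11 thalamic genes, among them *Lhx9*, 4 were higher in hippocampus and 2 in cortex (10.5% and 11.8% of all genes), with sums of 210, 239 and 245 CPM in cortex and 204, 300 and 231 CPM in hippocampus. The cerebellar list had 2 genes higher in hippocampus and 1 in cortex of 7 tested, against 10.5% and 11.8% of all genes. The olfactory bulb list summed to 62 CPM in that library and to at most 18.4 CPM in the other 5. The part of these neighboring tissues in the differences of the other lists was not tested.

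**Figure D4:**
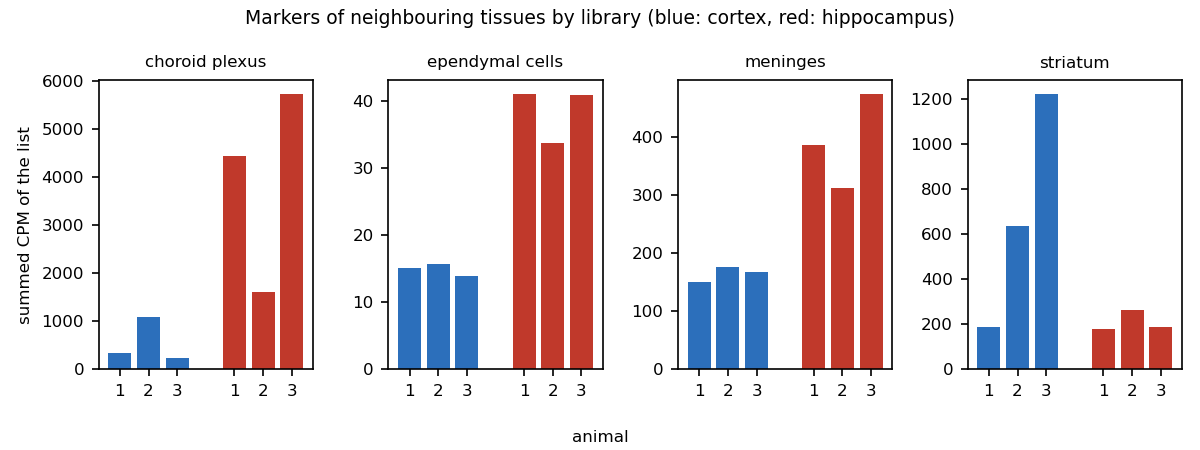
Summed CPM (vertical, from 0) of the marker lists of 4 neighboring tissues in each library, cortex in blue and hippocampus in red, for animals 1, 2 and 3. Choroid plexus genes sum to 1608 CPM in the hippocampus of animal 2 and to 4433 and 5727 CPM in the others, and striatal genes sum to 189, 636 and 1221 CPM in the 3 cortices.

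Receptors for glutamate differed subunit by subunit. Of 18 genes of AMPA and kainate receptors and their auxiliary proteins, 5 were higher in hippocampus and 6 higher in cortex (10.5% and 11.8% of all genes). *Gria1*, the GluA1 subunit gene, measured 257, 292 and 365 CPM in cortex and 969, 956 and 1000 CPM in hippocampus (1.69, SE 0.10, adjusted p = 0.0001), whereas *Gria2*, the GluA2 subunit gene, was not called (0.23, SE 0.07). *Gria3* (-0.49, SE 0.06) and *Gria4* (-0.82, SE 0.06) were higher in cortex. On the per-length scale *Gria2* exceeded *Gria1* in cortex (301 against 110 TPM), and the levels were alike in hippocampus (364 against 365 TPM). The auxiliary subunits split as well: *Shisa6*, which keeps AMPA receptors at synapses, measured 13, 16.6 and 20.5 CPM in cortex and 186, 186 and 190 CPM in hippocampus (3.51, SE 0.12). *Cacng8* (1.47, SE 0.13) and *Cnih2* (1.25, SE 0.06) were also higher in hippocampus, and *Cacng2* (-0.57, SE 0.07) and *Cacng3* (-1.10, SE 0.06) in cortex. *Grin1*, the obligatory NMDA receptor subunit gene, was not called (-0.10), and the 4 called genes of the NMDA and delta list were at most 0.74 from 0 on the log2 scale, with 2 of 8 in each direction (10.5% and 11.8% of all genes) and 1 in each direction without animal 1 or animal 2. Of 10 metabotropic receptor and Homer scaffold genes, 4 were higher in each tissue (10.5% and 11.8% of all genes), and the number for hippocampus was 2 without animal 1 or animal 2. *Grm3* (-1.48, SE 0.06) and *Homer1* (-1.11, SE 0.09), a scaffold gene, were higher in cortex and *Homer2* (0.63, SE 0.06) in hippocampus.

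Of 16 GABA receptor genes, 4 were higher in hippocampus and 6 in cortex (10.5% and 11.8% of all genes). *Gabra5*, whose product sits largely outside synapses, measured 33.9, 37.4 and 41.6 CPM in cortex and 133, 119 and 129 CPM in hippocampus (1.76, SE 0.08). *Gabra2* was also higher in hippocampus (0.95, SE 0.08), and *Gabra3* (-1.19, SE 0.09) was higher in cortex. *Gabrd*, the delta subunit of tonic inhibition, which granule cells also express, measured 60.8, 60 and 51.8 CPM in cortex and 18, 16.6 and 16.3 CPM in hippocampus (-1.76, SE 0.07). The metabotropic receptor genes *Gabbr1* and *Gabbr2* were not called (-0.10 and -0.17).

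Of 37 voltage-gated potassium channel genes, 19 were higher in cortex and 6 in hippocampus, with a median of -0.28, against 11.8% and 10.5% of all genes. Of the ether-a-go-go family, *Kcnh1* (-1.17, SE 0.08), *Kcnh3* (-1.08, SE 0.06), *Kcnh4* (-2.72, SE 0.17), *Kcnh5* (-3.24, SE 0.24) and *Kcnh7* were all higher in cortex. *Kcnh7* measured 188, 263 and 253 CPM in cortex and 42.2, 50.6 and 50 CPM in hippocampus. Silent subunits, which modify Kv2 channels, went both ways: *Kcnf1* (-1.37, SE 0.08), *Kcns1* (-1.72, SE 0.11) and *Kcnv1* (-1.32, SE 0.10) were higher in cortex, and *Kcng1* (1.04, SE 0.13) and *Kcng2* (2.41, SE 0.13) in hippocampus. *Kcnab3*, a cytoplasmic beta subunit gene outside the list, was higher in cortex (-1.55, SE 0.09).

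Receptors of the modulatory transmitters were called in both directions, 8 higher in hippocampus and 10 higher in cortex of 31 tested (10.5% and 11.8% of all genes). Of the serotonin receptors, *Htr1a*, *Htr4* (2.59, SE 0.52) and *Htr5b* (2.18, SE 0.29) were higher in hippocampus and *Htr2a* (-1.40, SE 0.09), *Htr1f* (-1.33, SE 0.18) and *Htr5a* (-0.80, SE 0.09) in cortex. *Htr2a*, the target of classical hallucinogens, measured 18.4, 26 and 28.3 CPM in cortex and 6.54, 10.6 and 10.5 CPM in hippocampus. *Drd5*, a D1-type dopamine receptor gene, measured 1.05, 1.43 and 2.10 CPM in cortex and 10.6, 8.70 and 10.7 CPM in hippocampus (2.75, SE 0.21). Of the adrenergic receptors, *Adra1a* (-1.24, SE 0.09), *Adra1b* (-2.45, SE 0.14) and *Adrb1* (-1.47, SE 0.11) were higher in cortex and *Adra1d* (0.96, SE 0.20) in hippocampus. The muscarinic receptor genes *Chrm2* (-0.85, SE 0.10) and *Chrm4* (-0.97, SE 0.09) were higher in cortex, and *Chrna7* (0.84, SE 0.13), a nicotinic subunit gene, in hippocampus. Of 21 neuropeptide genes 8 were higher in cortex and 3 in hippocampus (11.8% and 10.5% of all genes). *Pdyn*, prodynorphin, measured 28.4, 30.6 and 33.8 CPM in cortex and 6.37, 8.41 and 5.34 CPM in hippocampus (-2.22, SE 0.15), *Adcyap1*, the precursor gene of PACAP, was also higher in cortex (-1.37, SE 0.17), and *Grp*, gastrin-releasing peptide, was higher in hippocampus (1.32, SE 0.16). *Cck*, one of the most abundant cortical peptides, was not called (0.04).

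Of 13 corticosteroid receptor and target genes, 6 were higher in hippocampus and 3 in cortex (10.5% and 11.8% of all genes), and the receptors themselves went in opposite directions. *Nr3c2*, the high-affinity mineralocorticoid receptor gene, measured 33.6, 38.7 and 50.1 CPM in cortex and 193, 181 and 194 CPM in hippocampus (2.23, SE 0.11, adjusted p = 6.1e-05). *Nr3c1*, the glucocorticoid receptor gene, measured 140, 163 and 156 CPM in cortex and 104, 115 and 109 CPM in hippocampus (-0.48, SE 0.05, adjusted p = 0.0014). Per length, *Nr3c1* thus exceeded *Nr3c2* in cortex (50.1 against 14.1 TPM) and *Nr3c2* exceeded *Nr3c1* in hippocampus (67.8 against 37.8 TPM). *Hsd11b1*, which regenerates active corticosterone (1.28, SE 0.12), and the receptor target *Fkbp5* (1.04, SE 0.12) were higher in hippocampus. Other targets differed, with *Zbtb16* (0.68, SE 0.08) higher in hippocampus, *Per1* (-0.77, SE 0.05) and *Cdkn1a* (-1.34, SE 0.11) higher in cortex, and *Sgk1* and *Tsc22d3* not called.

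Immediate early genes, which neurons induce within minutes of activity, were mostly higher in cortex, 13 of 19, and 2 were higher in hippocampus (11.8% and 10.5% of all genes), with a median of -0.77. *Egr2* measured 33.8, 51.1 and 25 CPM in cortex and 9.29, 12.8 and 5.43 CPM in hippocampus (-2.02, SE 0.09, adjusted p = 5.2e-05). *Arc*, whose product controls AMPA receptor removal, measured 461, 552 and 219 CPM in cortex and 195, 190 and 104 CPM in hippocampus (-1.29, SE 0.09). For both genes animal 3 was the lowest in each tissue. *Fos* (-1.11, SE 0.06), *Dusp1* (-1.15, SE 0.10), *Nr4a1* (-0.96, SE 0.07) and *Npas4* (-0.77, SE 0.07) were also lowest in animal 3 in each tissue. Without the animal block 8 in place of 13 genes were called higher in cortex, and *Npas4* (adjusted p = 0.21), *Junb* (0.35), *Btg2* (0.45), *Ier2* (0.074) and *Fosb* (0.054) lost their calls. Without animal 1 the calls of *Btg2* (adjusted p = 0.18) and *Ier2* (0.061) were lost, and without animal 2 those of *Btg2* (0.21), *Ier2* (0.053) and *Junb* (0.078). With TPM *Btg2* (0.14) and *Fosb* (0.058) lost their calls, in one fit of 18 libraries *Btg2* (0.089) and *Junb* (0.12), and with library size alone *Btg2* (0.072). *Jun* went the other way, at 34.3, 37.1 and 38.1 CPM in cortex and 76.4, 78.1 and 76.8 CPM in hippocampus (1.08, SE 0.06), as did *Nr4a3* (0.79, SE 0.13), whose call was lost in one fit of 18 libraries (adjusted p = 0.054). The effector gene *Bdnf* was not called (0.30, SE 0.16).

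The start sites of these genes were examined for short motifs, because most of the called members were higher in the same tissue. RefSeq windows of 300 bases (250 before to 50 after the start site, GRCm38.p6) were found for 14 of the 19 genes. The cAMP response core TGACG was searched on both strands together with the full palindrome TGACGTCA, which contains the core on each strand, and the CArG box of serum response factor. TGACG was found in at least 1 window of 11 of the 14 genes, against 23.0% of the 27025 genes with a window and 33.3% of those tested here. The 14 genes had 24 windows and the 27025 genes 32851, so the listed genes had more windows per gene in which to hold a match. All 8 genes with a window that were higher in cortex held TGACG. So did *Nr4a3* of the 2 that were higher in hippocampus, and 2 of the 4 that were not called. The genes without a window, *Arc*, *Egr1*, *Egr3*, *Ier2* and *Nptx2*, were all higher in cortex and could not be examined. The genes more than 2-fold higher in hippocampus held it in 19.5% and those more than 2-fold higher in cortex in 23.8%. The palindrome was found in 2 of the 14 genes, *Dusp1* and *Btg2*, against 2.03% of all genes with a window and 3.36% of those tested. The CArG box was found in 1, *Egr2*, against 1.81% and 1.6%. These matches are a description of the sequence and not of binding. The windows of 4 genes higher in cortex and of *Nr4a3* are given 5′ to 3′ on the gene's strand, with TGACG, its reverse complement CGTCA, the palindrome and the CArG box in capitals, to show how the matches lie before the start site. The positions are chr12:85473640-85473939 on the plus strand for *Fos*, chr15:101266596-101266895 on the plus strand for *Nr4a1*, chr17:26508423-26508722 on the minus strand for *Dusp1*, chr10:67537619-67537918 on the plus strand for *Egr2* and chr4:48045055-48045354 on the plus strand for *Nr4a3*.
Fos: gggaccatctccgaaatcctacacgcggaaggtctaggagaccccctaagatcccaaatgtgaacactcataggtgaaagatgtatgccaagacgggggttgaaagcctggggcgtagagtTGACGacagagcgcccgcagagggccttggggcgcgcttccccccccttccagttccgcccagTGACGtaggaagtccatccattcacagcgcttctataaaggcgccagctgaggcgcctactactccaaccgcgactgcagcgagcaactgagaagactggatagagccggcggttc
Nr4a1: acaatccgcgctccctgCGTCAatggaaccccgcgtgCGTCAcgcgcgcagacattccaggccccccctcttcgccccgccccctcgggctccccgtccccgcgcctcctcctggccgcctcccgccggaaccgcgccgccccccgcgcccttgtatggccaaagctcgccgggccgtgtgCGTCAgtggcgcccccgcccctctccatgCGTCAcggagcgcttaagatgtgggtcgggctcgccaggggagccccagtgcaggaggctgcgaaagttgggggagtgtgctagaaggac
Dusp1: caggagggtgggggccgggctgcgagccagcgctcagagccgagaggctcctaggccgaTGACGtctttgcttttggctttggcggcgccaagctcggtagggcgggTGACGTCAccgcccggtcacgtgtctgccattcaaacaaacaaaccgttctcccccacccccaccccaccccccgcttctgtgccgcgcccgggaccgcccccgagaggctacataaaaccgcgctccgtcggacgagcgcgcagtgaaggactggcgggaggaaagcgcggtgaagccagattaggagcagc
Egr2: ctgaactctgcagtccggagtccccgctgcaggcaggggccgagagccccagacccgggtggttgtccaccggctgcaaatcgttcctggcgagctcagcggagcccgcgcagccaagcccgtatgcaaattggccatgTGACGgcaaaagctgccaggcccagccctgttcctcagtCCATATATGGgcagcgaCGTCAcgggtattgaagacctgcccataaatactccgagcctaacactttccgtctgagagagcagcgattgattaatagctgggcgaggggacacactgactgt
Nr4a3: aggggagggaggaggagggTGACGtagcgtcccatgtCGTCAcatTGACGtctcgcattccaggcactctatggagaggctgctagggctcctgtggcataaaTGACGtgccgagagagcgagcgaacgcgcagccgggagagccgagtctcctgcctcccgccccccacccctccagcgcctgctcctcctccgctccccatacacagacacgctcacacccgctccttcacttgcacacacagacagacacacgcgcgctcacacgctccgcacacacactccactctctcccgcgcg

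In *Fos* the matches begin 129 and 66 bases before the start site, and in *Dusp1* the palindrome begins 143 bases before it. In *Egr2* the CArG box begins 72 bases before the start site and lies between matches at 111 and 55 bases before it. *Nr4a1* and *Nr4a3* hold 4 matches each, although *Nr4a1* was higher in cortex (-0.96) and *Nr4a3* in hippocampus (0.79). *Jun* held none.

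Adhesion and guidance genes were called in both directions. Of 31 synaptic organizer genes, 12 were higher in hippocampus and 11 in cortex (10.5% and 11.8% of all genes). Some paralogs differed in direction. *Cbln2* (-1.88, SE 0.15) was higher in cortex and *Cbln1* (0.90, SE 0.15) and *Cbln4* (0.54, SE 0.08, not called without the block at adjusted p = 0.074) in hippocampus. *Lrrtm3* (-1.31, SE 0.08) and *Lrrtm2* were higher in cortex and *Lrrtm1* (1.13, SE 0.11) in hippocampus. Other paralogs shared a direction, as *Tenm2*, *Tenm3* and *Tenm4* and *C1ql1* and *C1ql2* in hippocampus, and *Nrxn2* and *Nrxn3* and *Adgrl2* and *Adgrl3* in cortex. *Tenm2*, a teneurin of presynaptic and dendritic contacts, measured 106, 137 and 132 CPM in cortex and 224, 270 and 261 CPM in hippocampus (1.02, SE 0.06). Of 17 cadherins, 8 were higher in cortex (11.8% of all genes), led by *Cdh7* (-1.90, SE 0.13) and *Cdh6* (-1.72, SE 0.15), and 5 in hippocampus (10.5% of all genes), among them *Cdh9* (1.03, SE 0.12), which acts at mossy fiber synapses. Of 21 Eph receptor and ephrin genes, 7 were higher in hippocampus and 6 in cortex (10.5% and 11.8% of all genes). Of the 7, 5 were class A receptors. *Epha6* (1.29, SE 0.20) and *Epha7* (1.11, SE 0.11) were the largest of these, *Epha8* (-1.12, SE 0.10) was higher in cortex, and the ligand gene *Efna5* measured 30.9, 37.7 and 28.3 CPM in cortex and 7.75, 12.7 and 9.57 CPM in hippocampus (-1.70, SE 0.11).

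In Wnt signaling 8 of 30 genes were higher in cortex and 6 in hippocampus, against 11.8% and 10.5% of all genes. Of the ligands, *Wnt9a* (-1.85, SE 0.13) and *Wnt4* (-0.90, SE 0.11) were higher in cortex and *Wnt5a* in hippocampus (0.51, SE 0.11), a call lost without animal 2 (adjusted p = 0.096). Of the receptors, *Fzd3* (-1.43, SE 0.18), needed for axon tracts, was higher in cortex and *Fzd7* (1.24, SE 0.13) in hippocampus. *Dkkl1*, a secreted dickkopf-like gene, measured 11.5, 13.9 and 8.54 CPM in cortex and 1.29, 1.68 and 1.25 CPM in hippocampus (-2.99, SE 0.14). The pathway target *Axin2* was not called (-0.19, SE 0.07).

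*Rorb* belongs to a family that binds shared response elements with the REV-ERB repressors, and 4 of these 5 genes were higher in cortex (11.8% of all genes). *Rora* measured 137, 165 and 155 CPM in cortex and 68.3, 77.3 and 67.7 CPM in hippocampus (-1.10, SE 0.06, adjusted p = 9.2e-05). *Nr1d1* (-0.61, SE 0.06) and *Nr1d2* (-0.45, SE 0.05) differed by less. Of 21 genes of protein folding in the endoplasmic reticulum 3 were called (14.3%, against 22.2% of all genes), with a median of 0.01. *Hspa5*, the chaperone BiP, measured 232, 271 and 306 CPM in cortex and 235, 282 and 332 CPM in hippocampus (0.06, SE 0.06), and animals differed more than tissues. The 3 called genes were *Pdia4* (0.41), *Ddit3* (-0.45) and *Xbp1* (-0.26), and each lost its call without animal 1 (adjusted p = 0.051, 0.063 and 0.063), *Ddit3* and *Xbp1* also without animal 2 (0.13 and 0.13), and *Xbp1* without the block (0.16) and with TPM (0.082).

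The same contrast was available in 3 other mice, which are homozygous for the h5 allele of *Rorb* on the same strain, labelled as 7 weeks old, and share no library with the wild type. The h5 allele removes the start codon of the *Rorb1* transcript. In these mice 3867 of 17271 genes were called (22.4%), 1840 higher in hippocampus (10.7%) and 2027 higher in cortex (11.7%). Past 2-fold, 500 were higher in hippocampus (2.9%) and 603 in cortex (3.49%). Of the 16916 genes tested in both genotypes, 2811 were called in the same direction in both, which is 74.3% of the wild-type calls and 73.3% of the h5/h5 calls. Of 3784 wild-type calls 3751 had the same direction in h5/h5 mice (99.1%), and of the 13132 genes not called 75.6% did. Among 1087 wild-type calls past 2-fold, 1079 had the same direction. *Rorb* had log2 fold changes of -1.60 in wild type and -1.86 in h5/h5, *Nr3c2* of 2.23 and 2.10, and *Egr2* of -2.02 and -1.86. The h5/h5 mouse labelled as the third replicate carries a female label but had *Ddx3y*, a gene of the Y chromosome, at 59.9 and 69.5 CPM in its cortex and hippocampus.

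CPM values in the rest of this paragraph come from a joint TMM scaling of the regional libraries of both genotypes, so those of the wild type differ slightly from the ones above. No gene passed the test of a different tissue contrast in the genotypes (0 of 17866, 0%, edgeR interaction term), with 601 genes at an unadjusted p under 0.05 and 2 genes called by DESeq2. *Rspo1* measured 8.20, 8.55 and 5.40 CPM in wild-type cortex and 2.26, 2.81 and 3.26 CPM in h5/h5 cortex, and its log2 fold change was -3.06 in wild type and -1.12 in h5/h5 (difference 1.95, SE 0.45, unadjusted p = 0.002, adjusted p = 1). For *Rorb* itself the difference was -0.26 (SE 0.10, unadjusted p = 0.031, adjusted p = 1). Among genes with a symbol, the 5 smallest unadjusted p belonged to *Gm10163* (-0.74), *Arhgap30* (5.31), *Kcnab3* (0.61), *Gm10240* and *Gm13370*. *Gm10240* and *Gm13370* have the same counts in every wild-type library, so their reads could not be told apart. *Kcnab3* measured 67, 72 and 55.8 CPM in wild-type cortex and 38.1, 42 and 41.6 CPM in h5/h5 cortex, with 19.7 to 22.6 CPM in all 6 hippocampi. *Gm10163* and *Arhgap30* were also the genes called in opposite directions, named after their values were seen. *Arhgap30* measured 4.07, 0.112 and 2.12 CPM in wild-type cortex, and its wild-type call was lost without animal 1 (adjusted p = 0.2) and with TPM (0.1). The wild-type call of *Gm10163* (0.28) was lost without animal 1 (0.15), without animal 3 (0.13), without the block (0.44) and in one fit of 18 libraries (0.13).

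**Figure D5:**
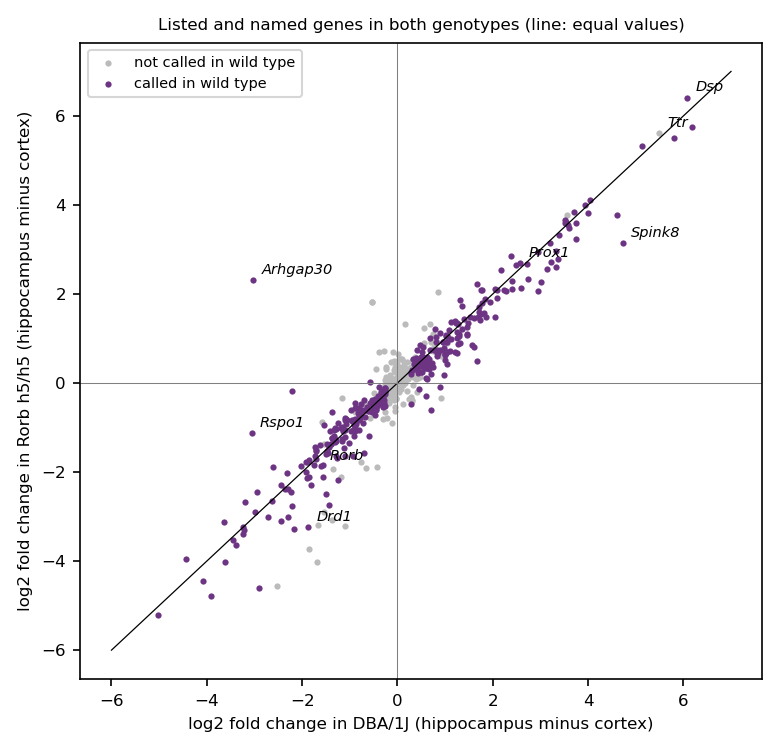
Log2 fold change of hippocampus minus cortex in DBA/1J (horizontal) and in *Rorb* h5/h5 mice (vertical) for 580 listed or named genes, purple where called in wild type and grey where not. Points lie along the line of equal values, with *Arhgap30* (-3.02 and 2.32) away from it and *Rspo1* at -3.06 and -1.12.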

How the data were processed

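Polyadenylated RNA of cortex and hippocampus of 3 DBA/1J mice was sequenced by the study. The deposited expected counts are fragments per gene as the authors estimated them with RSEM after trimming and alignment to GRCm38. The TPM values were deposited beside them, scaled by the authors for length and depth. The annotation version is not given in the sources used here. Symbols were joined to 41407 of 45706 identifiers from GENCODE, and 31197 have a RefSeq position on GRCm38.p6. Identifiers with no symbol held 2.23% to 6.11% of the counts.

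Expected counts were rounded (5.03% of values were not whole) and filtered with filterByExpr (minimum count 10) in R 4.3.3 with edgeR 4.0.16, scaled by TMM and tested by the quasi-likelihood test with the animal as a block. The pairing comes from the animal identifier shared by both files of a mouse. Deviations from the tissue means correlated at 0.257, -0.0929 and 0.0937 within animals and at -0.309 to 0.21 between animals, so the ranges overlapped. On simulated counts of 16888 genes with 200 changed, the test recovered 81% of changes of 1 and 34% of 0.5 on the log2 scale, and 8.73% of its calls were false. The simulated counts held no differences between animals and a far smaller share of changed genes than was called in the real libraries. The p-values of the main test rest on 3 mice. Those of the interaction and of the fit of 18 libraries also use the h5/h5 mice. On leaving out an animal they rest on fewer mice, so a call lost there cannot be told apart from a call lost to the smaller number.

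Genes named are *Prox1*, *Rorb*, the 15 largest called differences in each direction with a mean of at least 5 CPM in the higher tissue and 1 direction in all animals, and the 5 smallest p in each direction and of the interaction. These picks were made among genes with a symbol. Members of 39 lists are named as well (570 genes, 555 tested, 310 called, where 22.2% of all genes tested were called). The lists and the comparison were chosen with earlier results of these data known. Alternatives were DESeq2 1.42.0, its size factors, library size alone, no filter, no block, one fit of the 18 regional libraries, TPM in limma 3.58.1 on log2(TPM + 1), and leaving out each animal. The remaining 48 libraries of brain and spinal cord were not used here, some genes are not reported here, and no column of the authors' own comparisons was used.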

Additional observations from a re-analysis of the deposited data

How the results depend on the processing

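The 3815 calls and the number in each direction stayed within 1.5 times under DESeq2 (3450 calls, 3276 of them shared), DESeq2 size factors (3811), library size alone (3941, where hippocampus and not cortex held the larger share, 56%), no low-count filter (4035) and one fit of 18 libraries (4947). Without the replicate block, that is without pairing by animal, 3537 genes were called in wild type and 4360 in place of 3867 in h5/h5 mice. With TPM in limma 3138 genes were called, and those past 2-fold numbered 375 in hippocampus and 277 in cortex; the cause was not tested. Leaving out each animal gave 2579 to 3443 calls, 1142 to 1621 higher in hippocampus, 1349 to 1822 higher in cortex, and 396 to 602 and 433 to 518 past 2-fold. No named or listed gene that was called changed its direction under any of these settings. Of 333 such genes, 41 lost their call with TPM, 39 without the block, 17 with DESeq2 and 64, 53 and 22 without animals 1, 2 and 3. The genotype difference was called for 0 genes in edgeR with or without the block, for 2 with DESeq2 (*Arhgap30* and *Gm10163*) and for 0 to 2 on leaving out the same replicate number of both genotypes, with *Drd1* and *Penk* called without replicate 3. Other scalings moved the median fold change by at most 0.05. On the simulated counts, with 200 of 16888 genes changed, 34% of changes of 0.5 on the log2 scale were recovered. In the real libraries 22.2% of genes were called, so this share need not hold for them. Of genes under 1 CPM 8.85% were called.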
